A study of Mus musculus with 12 samples.

Results

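The comparison of male AS with male WT glomeruli, made up of 6 of the 12 samples of the series, was described across the genes detected in it. A gene was kept when its value reached 0.5 parts per 1000000 of the column total (ppm) in at least 3 of the 6 tables, which left 15881 of 27592 listed genes. Of these, 357 reached that level in AS libraries only and 47 in WT libraries only, so that they had to differ, and 222 of the former are among the genes called higher and 46 of the latter among those called lower. AS mice were hemizygous males of the B6.Cg-Col4a5 tm1Yseg/J strain, labelled Col4a5-/-, which carry a nonsense mutation of the X-linked collagen gene Col4a5 in every cell, and WT mice were C57BL/6J males. Both groups had 3 samples and an age of 3.5 months in the labels, while the supplement of the study states a different age for males. Glomeruli were sieved out of kidney cortex after the capsule and medulla had been taken off. The study used these libraries to define a glomerular gene signature of Alport syndrome and to look for targets of the microRNA miR-93-5p. Female WT and heterozygous female AS samples were used here only to test whether the difference seen in males differed from that in females.

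The glomerulus filters blood through fenestrated endothelium, the glomerular basement membrane and the slit diaphragm between podocyte foot processes, while mesangial cells hold the capillary loops together. Mature basement membrane contains a network of α3, α4 and α5 chains of type IV collagen, and a network of α1 and α2 chains takes its place where one of the 3 partner chains is missing. In X-linked Alport syndrome the loss of the α5 chain is followed by proteinuria, podocyte injury, deposition of other matrix proteins and progressive kidney failure, which run an earlier course in hemizygous males than in heterozygous females.

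The values are TMM-normalized counts, read counts per gene that the authors had rescaled between libraries, and column totals were 14242206 to 23182937. Tests were made with limma on log2 of the value plus a pseudocount of 17.6, which is 1 ppm of the mean column total, so that the log2 fold change of a gene with low values is smaller than its ratio of means. A gene was called when its p, adjusted by Benjamini-Hochberg over all 15881 genes, was under 0.05. The supplement of the study counts mice and describes the isolation mouse by mouse, whereas the labels name no animals, and p measures the spread between these samples. The headers of the male tables name no sequencing run. All 20 podocyte and all 20 glomerular endothelial markers were measured, and podocyte markers took 0.913% to 1.72% of the column total in WT and 2.58% to 3.54% in AS. Tubule RNA was present in every library, with 2.05% to 2.83% of the column total from 30 proximal tubule markers in WT and 0.407% to 0.854% in AS. These shares did not overlap between the genotypes (exact permutation test, two-sided, p = 0.10 for each, the smallest that 3 libraries against 3 allow), and their part in the differences below was not tested. In bulk RNA, fewer cells of a type and less RNA per cell cannot be told apart.

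A large part of the transcriptome differed between the genotypes, and the losses were deeper than the gains. In limma 5641 genes (35.5%) were called, of which 2638 (16.6%) were higher and 3003 (18.9%) were lower in AS. Every count of list members called below is to be read against these shares. Past a log2 fold change of 1 in either direction there were 599 higher and 1329 lower genes, and past 2 there were 19 higher and 202 lower genes. All 3 AS libraries lay above all WT libraries for 4126 genes (26.0%) and below them for 4314 genes (27.2%), so that the groups did not overlap for 53.1% of genes. A lack of overlap given below for single genes is to be read against these shares. Genes at higher levels were called more often, from 23.5% of those under 1 ppm to 49.5% of those between 100 and 1000 ppm, and in 47.1% of those above 1000 ppm. The count rested on which libraries were kept: leaving out WT replicate 1 or 3 gave 3111 and 2833, and leaving out AS replicate 2 or 3 gave 3128 and 2644. A core of 2149 genes, 922 higher and 1227 lower, was called in the full fit and in each of the 6 fits that left out 1 library. Of the 77 called genes described below, 71 belong to this core, and the other 6 are pointed out.

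The scale decides how the calls divide. On the deposited scale the median log2 fold change of all genes was 0.00, and the fold changes below are relative to it. With equal column totals the median of all genes shifted to 0.36 and 5292 genes were called higher and 1420 lower. Divided by the geometric mean of the podocyte and endothelial markers of each library, the median was -0.71, and 235 genes were higher and 7874 lower. Divided by that of the proximal tubule markers, it was 1.88, with 14181 higher and 24 lower. The 235 and the 24 genes were all called in the same direction on the deposited scale. Of the gene lists examined, only the proximal tubule and male-biased kidney lists had a negative median on the proximal tubule scale. For the proximal tubule list this value was largely fixed by the division itself, and both lists hold Kap. Each other lower list below turned there.

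**Figure D1:**
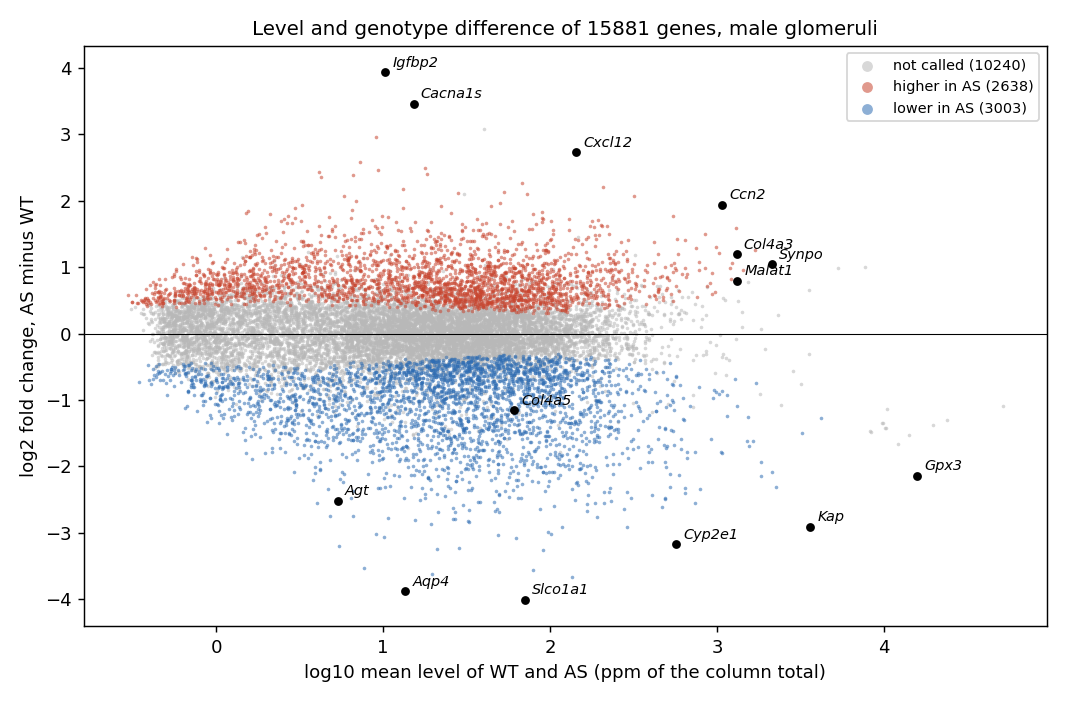
Each point is one of 15881 genes, with the log10 of the mean of its WT and AS level (in ppm) on the x axis and its log2 fold change in AS against WT male glomeruli on the y axis; red points were higher (2638), blue points lower (3003) and gray points not called in limma. Igfbp2 and Cacna1s lie above all other called genes, at 3.94 and 3.46, and the abundant Gpx3 and Kap lie far below 0.

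Col4a5, which encodes the α5 chain of type IV collagen and carries the mutation, was lower in every AS library. On GRCm38 its locus spans bases 141475385 to 141689234 of the forward strand of chromosome X. Its normalized value was 1209, 1854 and 1426 in WT, whereas AS libraries had 727, 674 and 572, with no overlap. The log2 fold change was -1.15 (standard error 0.18, adjusted p = 0.00609 in limma). Col4a6, which encodes the α6 chain and lies head to head with Col4a5, fell further. Its values were 84.9, 141 and 111 in WT and 24.8, 20.6 and 8.70 in AS, and its log2 fold change was -1.87 (standard error 0.24, adjusted p = 0.00437 in limma). Divided by the proximal tubule markers, Col4a5 turned to 1.02.

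Among the 37 other tested genes within 5 Mb of Col4a5, 4 were higher and 5 were lower, which is 24.3% called against 35.5% of all genes. Their median log2 fold change was -0.05. Tsc22d3, which encodes the glucocorticoid-induced leucine zipper, went from 1433, 1500 and 1625 in WT to 3921, 5529 and 3666 in AS (log2 fold change 1.49, adjusted p = 0.00392 in limma). Acsl4, an acyl-CoA synthetase that activates arachidonic acid, went from 2236, 1866 and 2055 to 4494, 3963 and 4255 (1.04, adjusted p = 0.00392 in limma). Cldn2, a claudin of the leaky tight junctions of the proximal tubule, fell by 2.12 on the log2 scale. Genes near Col4a5 thus moved in both directions, and most were not called.

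**Figure D2:**
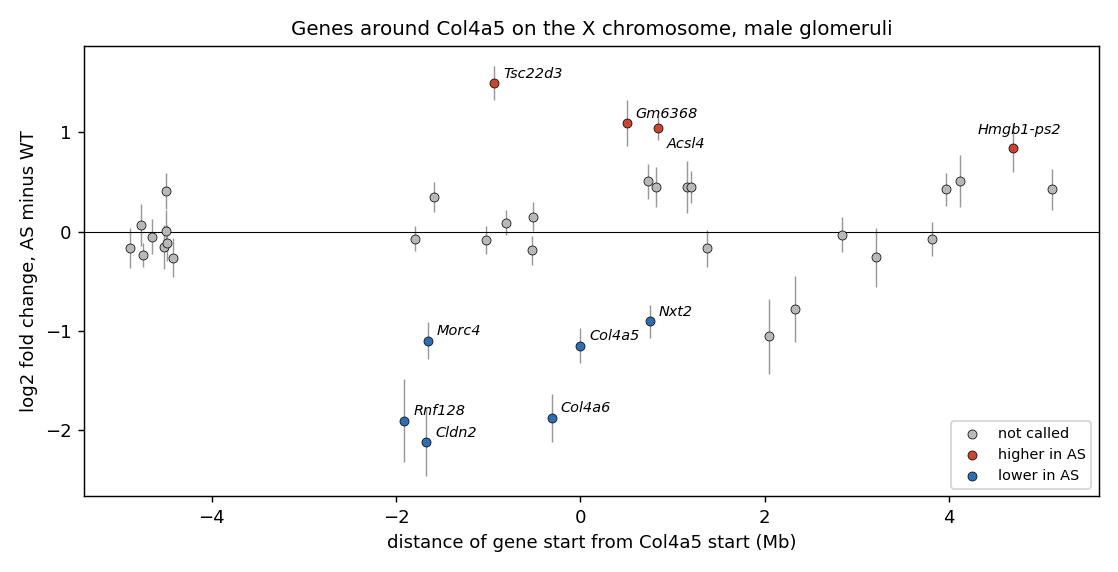
Each point is a tested gene within 5 Mb of Col4a5, placed by the distance of its start from the start of Col4a5 (Mb, x axis) and by its log2 fold change in AS against WT (y axis, bars are the standard error from limma, n = 3 and 3). Col4a5 at -1.15 and Col4a6 at -1.87 were lower, Tsc22d3 at 1.49 and Acsl4 at 1.04 were higher, and 28 of the 38 genes shown were not called.

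The genes that rose most in AS glomeruli encode secreted and matrix proteins, a calcium channel, a chemokine and a transcription factor. Igfbp2, which encodes an insulin-like growth factor binding protein, stood at 1.23, 4.62 and 4.85 in WT and reached 284, 313 and 318 in AS. This 85.5-fold ratio of means, or 3.94 ± 0.15 (standard error) as a log2 fold change with adjusted p = 0.0001 in limma, was the largest increase at this pseudocount, and the spread within each group was a small part of it. Igfbp2 passed the filter through AS libraries only, so its test adds little to these values. At pseudocounts of 0.25 and 4 ppm its log2 fold change was 5.31 and 2.34, and at the latter it was below those of Cxcl12 (2.63) and Cacna1s (2.42). Cacna1s, the pore subunit of the L-type calcium channel of skeletal muscle, went from 14.8, 39.1 and 19.4 to 419, 497 and 385 (3.46, adjusted p = 0.00108 in limma). R3hdml, which encodes a peptidase inhibitor, went from 12.3, 24.2 and 14.5 to 201, 329 and 231 (2.96, adjusted p = 0.00152 in limma). For each of the 3 genes the highest WT value was far below the lowest AS value.

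Cxcl12, the chemokine that binds CXCR4, rose from 462, 733 and 499 to 3401, 4204 and 3800 (log2 fold change 2.74, adjusted p = 0.00108 in limma). Pcsk6, a proprotein convertase, rose from 1026, 1476 and 954 to 4561, 6306 and 5067 (2.20, adjusted p = 0.00258 in limma). Svep1, a large adhesion protein of the extracellular matrix, rose from 245, 480 and 354 to 1678, 1845 and 1697 (2.27, adjusted p = 0.0031 in limma). In these 3 genes the lowest AS library was more than 3 times the highest WT library.

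The other increases were of Loxl1, a lysyl oxidase that crosslinks elastin and collagen (2.59), Tnfsf15, a TNF family ligand made by endothelium (2.49), Foxs1, a forkhead transcription factor of pericytes (2.46), and Frem1, a matrix protein of the Fraser complex (2.43). Adam12, a metalloprotease (2.40), Rspo1, a secreted enhancer of Wnt signaling (2.37), Btnl9, a butyrophilin-like protein (2.13), and the predicted gene Gm47283 (2.17) came next to the protocadherin Pcdhgc4 (2.38). All were called in limma, with adjusted p from 0.00108 to 0.0105, and Frem1, like Igfbp2, passed the filter through AS libraries only. Pcdhgc4 owed much of its rise to AS replicate 2, with 370 against 76.7 and 96.2 in the other AS libraries and 9.77, 15.2 and 15.1 in WT, and its call was lost without WT replicate 1 (adjusted p = 0.0502 in limma). All 15 genes were still called higher when values were divided by the podocyte and endothelial markers, where Igfbp2 was at 3.46, Cacna1s at 2.83, Cxcl12 at 1.92 and Btnl9 at 1.33.

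**Figure D3:**
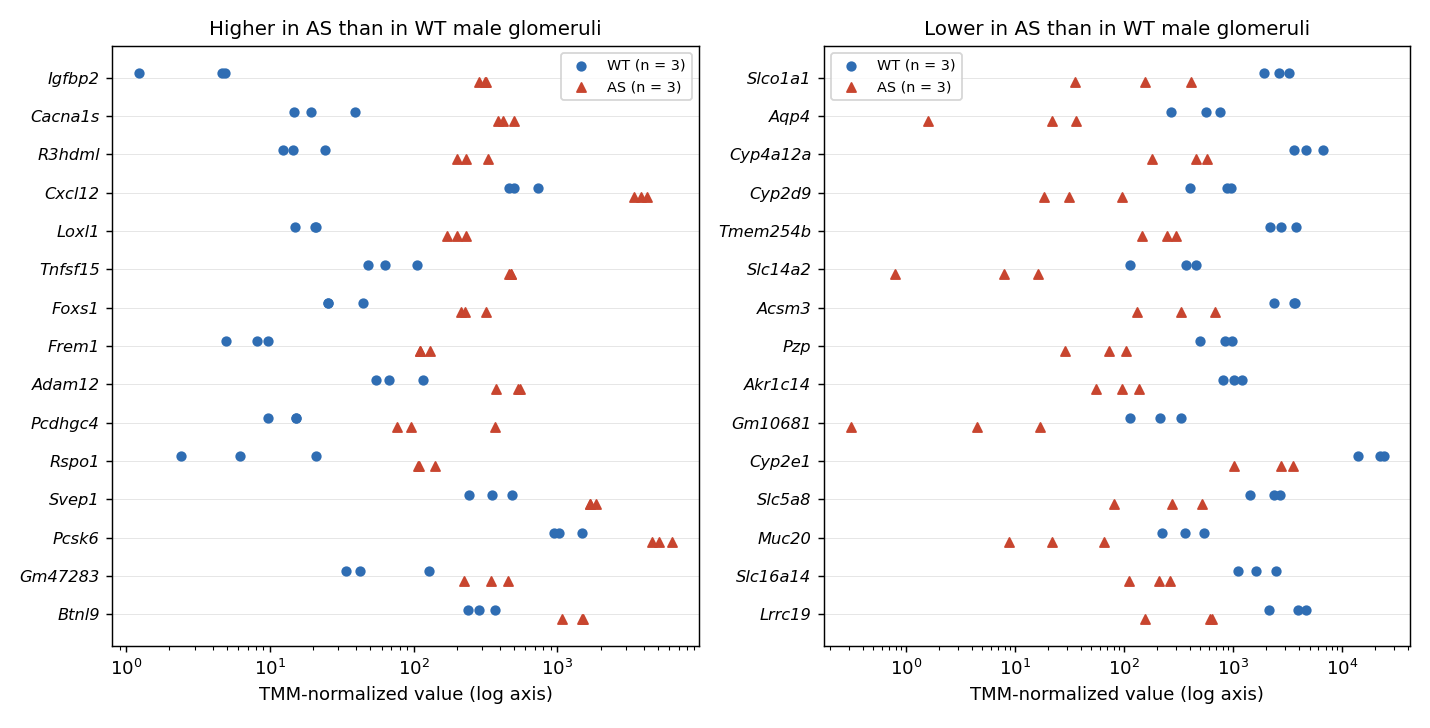
TMM-normalized values (x axis, log scale) of the 15 genes with the largest increase and the 15 with the largest decrease in AS, 1 row per gene, with blue circles for the 3 WT and red triangles for the 3 AS libraries. The genotypes do not overlap in any row; the rule that chose the genes asks for this.

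The genes that fell most were transporters and enzymes of tubule epithelium, and many of them are known to be expressed more in kidneys of male than of female mice. Slco1a1, which carries organic anions in the proximal tubule, went from 2631, 1910 and 3232 in WT to 410, 35.7 and 157 in AS, a 12.9-fold ratio of means (log2 fold change -4.01, standard error 0.65, adjusted p = 0.00659 in limma). Aqp4, a water channel of the basolateral membrane, went from 562, 268 and 762 to 36.4, 1.59 and 21.7 (-3.88, adjusted p = 0.00392 in limma). Slc14a2, the urea transporter of the inner medullary collecting duct, went from 458, 112 and 372 to 16.3, 0.794 and 7.83 (-3.52, adjusted p = 0.00494 in limma). In all 3 genes AS replicate 2 was the lowest library.

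Enzymes made up most of the remainder. Cyp4a12a (-3.66) and Cyp2d9 (-3.62) are male-biased cytochromes P450 whose families hold close copies that may share reads, and Cyp2e1 (-3.17) oxidizes ethanol and small solvents. Acsm3, a medium-chain acyl-CoA synthetase (-3.26), Akr1c14, a hydroxysteroid dehydrogenase (-3.23), and Pzp, a protease inhibitor (-3.25), fell as far. Slc5a8, a sodium-coupled carrier of lactate (-3.08), Slc16a14, a monocarboxylate transporter family member (-3.03), the membrane protein Lrrc19 (-3.03), the mucin Muc20 (-3.07), Tmem254b (-3.56) and Gm10681 (-3.20) complete the 15. Adjusted p was 0.00179 to 0.00801 in limma for these 12 genes. All 15 were still called lower with equal column totals.

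The highest levels shifted in the same directions. Gpx3, a glutathione peroxidase secreted by the proximal tubule, alone took 3.21%, 1.73% and 2.30% of the column total in WT and 0.724%, 0.535% and 0.917% of it in AS. Its log2 fold change was -2.14 (adjusted p = 0.0276 in limma), and the call was lost in 5 of the 6 fits without 1 library, with values from -1.80 without WT replicate 1 to -2.34 without AS replicate 3. Kap, an androgen-regulated protein of the proximal tubule, went from 152109, 84952 and 130460 to 28816, 7712 and 17762 (-2.91, adjusted p = 0.00705 in limma). Selenop, a selenium transport protein, fell by 2.08 and Slc34a1, the main phosphate transporter of the proximal tubule, fell by 2.31 on the log2 scale.

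On the side of the gains stood Ccn2, a matricellular growth factor formerly called CTGF. It went from 6718, 9015 and 5155 to 21784, 30735 and 26528 (log2 fold change 1.94, adjusted p = 0.00421 in limma). Nes, an intermediate filament protein of podocytes, rose by 1.59 and Npnt, the basement membrane ligand of integrin α8β1, by 1.22, with adjusted p = 0.0066 and 0.00506 in limma. Synpo, an actin-associated protein of podocyte foot processes, was 20315, 31302 and 16658 in WT and 37549, 55171 and 44810 in AS (1.04, adjusted p = 0.0307 in limma). The call of Synpo was lost without WT replicate 1 or 3 or AS replicate 2 or 3, with values of 0.84 to 1.05.

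Most basement membrane genes rose, while the 2 neighboring collagen chains Col4a5 and Col4a6 fell. Of 19 genes of the glomerular basement membrane list, 13 were higher (against 16.6% of all genes) and 3 were lower, with a median log2 fold change of 0.79 (0.00 for all genes), which turned to -0.03 when values were divided by the podocyte and endothelial markers. Col4a3, which encodes the α3 chain that pairs with α5, more than doubled, from 12389, 13813 and 12147 to 28668, 31175 and 28025 (1.20, adjusted p = 0.00566 in limma). Nid2, which links laminin and collagen networks, went from 493, 839 and 499 to 1486, 2161 and 1833 (1.58, adjusted p = 0.00566 in limma). Col4a1, of the α1 and α2 network, was 10806, 11033 and 9313 in WT and 11198, 15872 and 15634 in AS and was not called (0.44, adjusted p = 0.106 in limma). Col4a5, Col4a6 and Lama1, a laminin chain of immature and tubular basement membranes (-1.49, adjusted p = 0.00776 in limma), were the 3 that fell. Of these 16 calls, 8 higher and 3 lower were made in each fit without 1 library.

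Of 17 genes of interstitial matrix and fibrosis, 10 were higher and none was lower, against 16.6% and 18.9% of all genes, with a median of 0.91 that stayed positive under each scaling (0.30 with podocyte and endothelial markers). Crosslinking enzymes were among them: Loxl2 went from 1328, 1710 and 1258 to 3782, 4843 and 4551 (1.61, adjusted p = 0.00311 in limma), and Lox from 46.7, 57.7 and 43.6 to 177, 157 and 164 (1.46, adjusted p = 0.00364 in limma). The gelatinase Mmp2 (1.66) and the matrix glycoprotein Tnc (1.55) rose as well. Fn1, which encodes fibronectin, was 471, 421 and 445 in WT and 281, 436 and 426 in AS, overlapped and was not called (-0.24, adjusted p = 0.318 in limma). Of the 10 calls, 7 were made in each fit without 1 library.

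Smooth muscle genes split in direction, while fibroblast genes that were called rose. Tagln, an actin-binding protein of smooth muscle, went from 280, 314 and 331 to 1262, 1338 and 1170 (1.97, adjusted p = 0.00108 in limma), whereas Acta2, smooth muscle actin, went from 707, 776 and 707 to 494, 391 and 445 (-0.70, adjusted p = 0.0081 in limma, -0.30 with equal column totals). Of the 9 genes of smooth muscle and renin cells 3 were higher and 3 lower. Col1a2, a chain of type I collagen, went from 1593, 2719 and 1505 to 7013, 9669 and 7319 (2.07, adjusted p = 0.00392 in limma), and 4 of 7 interstitial fibroblast markers were higher (16.6% of all genes were) and none lower, with a median of 0.91. The other 3 were not called, and the 7 ranged from -0.38 to 2.07 out of a list of 10 members. Another collagen chain of this list passed the filter through AS libraries only, so that it had to differ. Tagln and Col1a2 stood clear of the WT range in every AS library.

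Inflammatory genes were called in both directions. Of 13 genes of the NF-kB system, 6 were higher and 2 lower, with a median of 0.48 that turned to -0.32 when divided by podocyte and endothelial markers. Nfkbie, an inhibitor of NF-kB, went from 106, 177 and 122 to 457, 667 and 536 (1.92, adjusted p = 0.00392 in limma), and Relb, a subunit of the noncanonical pathway, from 98.4, 162 and 135 to 351, 452 and 318 (1.40, adjusted p = 0.00576 in limma). No gene of the NF-kB list was called lower without WT replicate 1 or 3. In the fits without WT replicate 2, AS replicate 1 or AS replicate 3, 1 gene of it was. Vcam1, an adhesion molecule for leukocytes, is on the tubule injury list and not on the NF-kB list, and it fell. It went from 706, 976 and 493 to 134, 171 and 177 (-2.01, adjusted p = 0.00402 in limma). Of 18 interferon response genes, 1 was higher and none was lower, and without WT replicate 2 it was 6 higher. Of 15 complement genes, 1 was higher and 5 were lower, a share near the 35.5% called of all genes. The alternative pathway factor Cfb was at -1.98 (adjusted p = 0.00566 in limma), and 3 genes of the list were lower without WT replicate 1 or 3.

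Of 13 genes of endothelin and nitric oxide signaling, 7 were higher and 4 lower, against 16.6% and 18.9% of all genes. Their median of 0.63 turned to -0.18 with podocyte and endothelial markers. Ednrb, the endothelin receptor of endothelium, went from 2205, 1694 and 1257 to 4539, 6306 and 4904 (1.62, adjusted p = 0.00505 in limma). Ddah1, which degrades an inhibitor of nitric oxide synthase and is abundant in proximal tubule, went from 4695, 2498 and 4068 to 1311, 659 and 1209 (-1.82, adjusted p = 0.00717 in limma). The 7 higher calls of this list fell to 2 without WT replicate 1 or 3 and to 3 without AS replicate 2 or 3, and Ednrb was called in each. The 4 lower calls fell to 2 without WT replicate 1 or AS replicate 2 and to 1 without WT replicate 3 or AS replicate 3. Of 8 renin-angiotensin genes, 5 were lower and none was higher. For 2 of the 8, neither of them called, every AS library lay above every WT library. The list summed to 1132 to 1585 ppm in WT and 1850 to 2212 ppm in AS. Agt, which encodes angiotensinogen, was 207, 110 and 268 in WT and 19.4, 15.1 and 18.3 in AS (-2.52, adjusted p = 0.00392 in limma).

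Genes of tubule metabolism fell together. All 14 male-biased kidney genes were lower (18.9% of all genes were), with a median log2 fold change of -2.95, and 13 of them in each fit without 1 library. Those values include Slco1a1, Cyp4a12a, Cyp2d9, Acsm3, Cyp2e1 and Kap from above, and the list was drawn up with earlier results of these libraries known. All 29 proximal tubule markers tested were lower, with a median of -2.34. Divided by the proximal tubule markers themselves, the median of the male-biased list was -0.77. That of the proximal tubule list, at -0.14, was largely fixed by dividing by its own mean. Of the male-biased genes named, Slco1a1, Cyp2d9, Cyp4a12a, Acsm3 and Cyp2e1 remained called lower there, and Kap (-0.70) did not. Genes outside these lists also remained called lower, among them Aqp4 (-2.41), Slc14a2 (-2.24) and Agt (-0.88). On the deposited scale, collecting duct markers (8 of 11 lower, median -1.83) and intercalated cell markers (4 of 10 lower, median -1.56) also had negative medians. The collecting duct count was 3 without WT replicate 1 or 3 or AS replicate 3, and the intercalated count was 10 without AS replicate 1 and 0 when WT replicate 1 or 3 or AS replicate 3 was left out.

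Fatty acid oxidation genes were lower in 16 of 21 cases and higher in none, with a median of -1.08. Ehhadh, a bifunctional enzyme of peroxisomal oxidation, went from 4258, 2957 and 6302 to 1599, 540 and 1269 (-2.04, adjusted p = 0.0107 in limma). Of 17 antioxidant genes, 13 were lower and none was higher (median -1.04), among them the glutathione peroxidase Gpx1, from 23126, 14196 and 20158 to 6405, 4174 and 6041 (-1.78, adjusted p = 0.00505 in limma). The antioxidant count was 8 without WT replicate 3 or AS replicate 3. Of 22 nuclear genes of the respiratory chain, 17 were lower and none was higher (median -0.77), but leaving out WT replicate 1 or 3 gave 9 and 7, and leaving out AS replicate 2 or 3 gave 8 and 6. Lysosomal genes had a median of -0.60, with 11 of 16 lower, 1 higher and 7 lower without WT replicate 3. The protease Ctsh went from 1914, 1858 and 2054 to 970, 925 and 1009, a narrow spread in both groups (-0.99, adjusted p = 0.00385 in limma).

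Genes that mark tubule injury did not rise as a list. Of 14 such genes, 3 were higher and 6 lower, and 2 were lower without WT replicate 1 or 3 and 3 without AS replicate 3. Members ranged from -2.24 to 1.56, with every AS library above WT for 3 of them and below WT for 6. Lcn2, which encodes the injury marker NGAL, went from 276, 85.4 and 252 to 24.0, 27.0 and 24.4 (-2.24, adjusted p = 0.00688 in limma). Gdf15 and Igfbp1 are not on the tubule injury list. Gdf15, a stress-induced cytokine, went from 133, 178 and 224 to 74.4, 11.9 and 16.5 (-2.09, adjusted p = 0.0102 in limma), and Igfbp1, a liver and tubule binding protein of insulin-like growth factors, from 242, 98.2 and 405 to 31.0, 10.3 and 13.9 (-2.74, adjusted p = 0.00667 in limma). Every AS library was below every WT library for all 3 genes, as was the case for 27.2% of all genes.

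**Figure D4:**
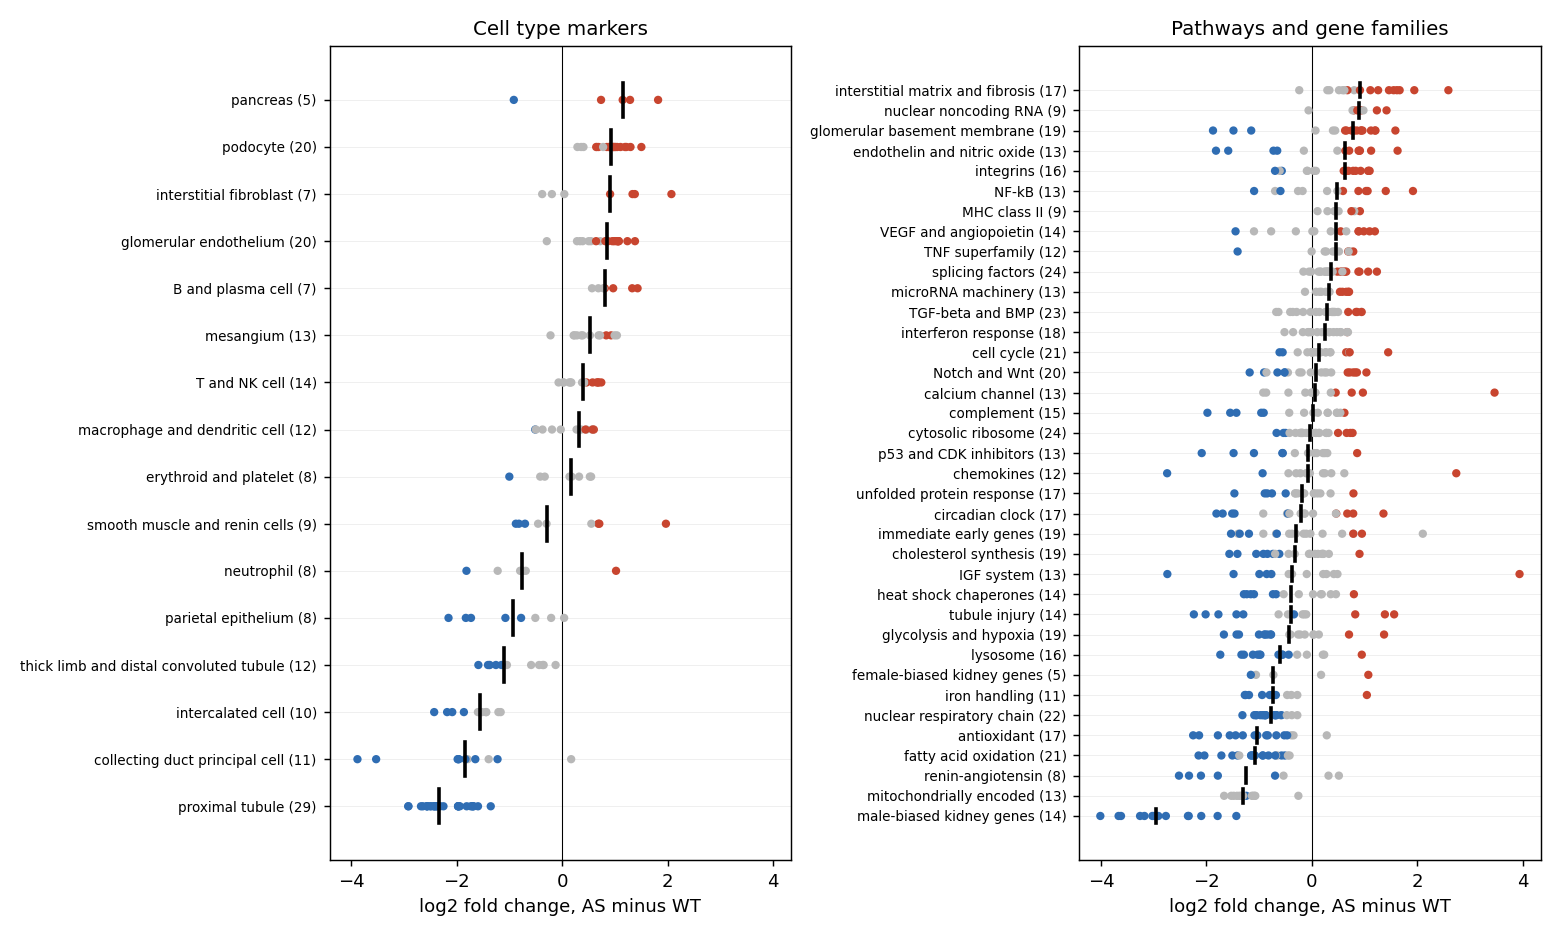
Each point is the log2 fold change (x axis) of one member of a gene list (rows, with the number of members tested) in AS against WT male glomeruli, for cell type markers on the left and for pathways and families on the right; red members were higher, blue members lower and gray members not called in limma, and black bars are list medians. Lists with at least 5 tested members are shown. The male-biased kidney and proximal tubule lists lie lowest, at medians of -2.95 and -2.34, and interstitial matrix and podocyte markers lie at 0.91 and 0.93. On other scales the values shift, by an amount that differs between genes. With podocyte and endothelial markers the medians of the matrix and podocyte lists were 0.30 and 0.14. The podocyte list is part of that scale, so its value there was largely fixed in advance.

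Clock and immediate early genes were uneven. Per1, a clock gene that glucocorticoids also induce, went from 814, 757 and 625 to 1819, 2239 and 1659 (1.36, adjusted p = 0.00392 in limma), while Nr1d1, a repressor in the same clock, went from 4411, 3520 and 2474 to 1147, 923 and 1039 (-1.69, adjusted p = 0.00403 in limma). Of 17 clock genes 4 were higher and 5 lower, against 1 and 3 without AS replicate 3 and 2 and 5 without WT replicate 1. Of 19 immediate early genes 2 were higher and 4 lower, against 16.6% and 18.9% of all genes, and members ranged from -1.53 to 2.10. Without AS replicate 3 the counts were 5 higher and 2 lower. Among the members named here the AS libraries disagreed. Fos was 4542, 6675 and 5308 in WT and 3779, 2712 and 840 in AS, and Fosb was 1173, 960 and 1110 in WT and 1102, 841 and 184 in AS. AS replicate 3 was the lowest library for both, and neither was called (adjusted p = 0.0571 and 0.225 in limma). Egr1, at 4398, 3264 and 3824 in WT and 2885, 1851 and 840 in AS, was called (-1.19, adjusted p = 0.0464 in limma) but lost the call in 5 of the 6 fits without 1 library, where it ranged from -0.71 without AS replicate 3 to -1.30 without WT replicate 2. The hour at which the kidneys were taken is not given in the sources used here.

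Classes of transcripts differed in their direction. Of 1183 processed pseudogenes, copies of messenger RNAs that were reinserted into the genome, 336 were higher and 64 lower (median 0.31, -0.22 with podocyte and endothelial markers), and of 742 long noncoding RNAs 118 were higher and 69 lower (median 0.07, -0.38 with those markers). Protein-coding genes split as 2128 higher and 2841 lower of 13624. Reads of processed pseudogenes may be shared with their parent genes. All long noncoding RNAs together took 0.381%, 0.490% and 0.404% of the column total in WT and 0.639%, 0.720% and 0.619% in AS. Transcripts of the mitochondrial genome took 29.7%, 14.6% and 21.8% in WT and 14.3%, 8.76% and 12.7% in AS, so that the highest AS library lay just under the lowest WT library (exact permutation test, two-sided, p = 0.10 for both shares). Of 13 mitochondrially encoded messenger RNAs, 1 was called lower, and 8 were without WT replicate 2.

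Nuclear RNAs and RNA-processing genes tended upward. Of 24 splicing factors 10 were higher and none lower, with a median of 0.36 that turned to -0.47 with podocyte and endothelial markers, and 5 calls were left without AS replicate 3. Clk1, a kinase of splicing factors, went from 513, 423 and 431 to 1578, 925 and 885 (1.23, adjusted p = 0.00809 in limma), with AS replicate 1 well above the other AS libraries. Malat1, a long noncoding RNA kept in the nucleus, went from 19123, 13542 and 15182 to 26313, 30974 and 25295 (0.80, adjusted p = 0.0234 in limma, -0.04 with podocyte and endothelial markers). Its call was lost without WT replicate 3, AS replicate 2 or AS replicate 3, at 0.71 to 0.85.

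Of 13 genes of the microRNA machinery tested, 5 were higher, none was lower and 8 were not called, with a median of 0.32 that turned to -0.50 with podocyte and endothelial markers, and 3 were higher without AS replicate 3. Dicer1, which cuts microRNA precursors, had the narrowest spread, at 883, 846 and 881 in WT and 1410, 1384 and 1332 in AS (0.65, adjusted p = 0.00622 in limma, -0.17 with podocyte and endothelial markers). Mature microRNAs are not captured by polyA RNA sequencing.

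The study asked about targets of miR-93-5p, so the sequence of this microRNA and its sites in the 3′ UTRs of 2 receptor genes are shown. The seed, bases 2 to 8 from the 5′ end, is in capitals. At least 7 mouse microRNAs of the RefSeq table (GRCm38.p6) share it, of which miR-106b-5p and miR-17-5p are given as 2 more.
mmu-miR-93-5p: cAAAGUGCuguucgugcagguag
mmu-miR-106b-5p: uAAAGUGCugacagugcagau
mmu-miR-17-5p: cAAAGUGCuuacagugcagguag
The 7 bases GCACTTT, the reverse complement of the seed read as DNA on the transcribed strand only, occurred in the longest annotated 3′ UTR of 1908 of 13414 tested protein-coding genes (14.2%, GENCODE M21 on GRCm38). They occurred at 2 places in Tnfrsf21, a death receptor of the TNF receptor family, and at 1 place in Tgfbr2, the type II receptor for TGF-β. The windows below carry these bases in capitals.
Tnfrsf21, chr17:43088282-43088310, forward strand: caacactattctgtGCACTTTaaaaactt
Tnfrsf21, chr17:43088811-43088839, forward strand: cttaagtgccagtgGCACTTTatgcccag
Tgfbr2, chr9:116090066-116090094, reverse strand: agccaataacgtttGCACTTTattaatgc
A match of this kind is a description of the sequence and not evidence of binding. The 2 genes differed in direction. Tnfrsf21 went from 5188, 3416 and 5566 in WT to 1764, 1665 and 1762 in AS, where the 3 libraries lay close together (-1.41, adjusted p = 0.00493 in limma). Tgfbr2 went from 3782, 4560 and 3169 to 5203, 7033 and 6283 (0.69, adjusted p = 0.023 in limma) and was at -0.14 when divided by podocyte and endothelial markers. The call of Tgfbr2 was lost without WT replicate 1 or 3 or AS replicate 2 or 3, at 0.56 to 0.69.

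Markers of other organs and of blood cells were also read. The erythroid and platelet list summed to 672 to 1312 ppm in WT and 1262 to 1869 ppm in AS, ranges that overlap, and of its 8 genes none was higher and 1 was lower. Ins2, Ins1 and Gcg, hormones of pancreatic islets, had a listed value of 0 in every WT library and so passed the filter through AS libraries only, and Ins2 was 37.2, 37.3 and 61.8, Ins1 19.4, 27.8 and 29.6, and Gcg 17.8, 21.4 and 25.2 in the AS libraries. The T and NK cell list summed to 6.15 to 13.6 ppm in WT and 16.0 to 26.1 in AS. Of its 14 tested markers 6 were higher (16.6% of all genes were), and 3 or 4 in each fit without 1 library. Some of these 14 passed the filter through AS libraries only, so that they had to differ. The B and plasma cell list summed to 7.51 to 24.3 ppm in WT and 32.9 to 69.4 in AS, with 4 of 7 higher. This count was 1 without WT replicate 3 or AS replicate 2 or 3. It was 2 without WT replicate 1 and at most 6, without WT replicate 2. Of 12 markers of macrophages and dendritic cells, 3 were higher and 1 lower, a share near the 35.5% called of all genes, and none was higher once WT replicate 1 or 3 or AS replicate 2 or 3 was left out. The part of such cells in the differences above was not tested.

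Heterozygous female glomeruli were used to ask which parts of the male difference differ between the sexes, and fewer genes were called in females. In females 222 of 15803 genes (1.4%) were called, from 2 WT and 3 AS libraries, since the table of female WT replicate 3 repeats that of replicate 1 and was counted once. Run and genotype cannot be told apart in females, because the run given in the headers of their WT tables differs from that of their AS tables. The difference between the male and the female effect was called for 3602 of 15492 genes (23.3%) in limma, and for none without female WT replicate 1, where 3648 genes had an unadjusted p under 0.05. Without female WT replicate 2 it was 4682. Either fit leaves 1 female WT library, which is assumed to vary like the other groups. Leaving out male WT replicate 1 or 3 gave 750 and 365, male AS replicate 2 or 3 gave 1602 and 1336, and female AS replicate 1, 2 or 3 gave 1657, 1159 and 768. Of the 79 named genes tested for it, 60 passed, 33 with a male effect above and 27 with one below the female effect.

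Among the named genes whose difference passed the test, Igfbp2, Cacna1s, Tsc22d3, Per1 and Svep1 had the largest differences on the side of a higher male effect. Igfbp2 was 4.03 and 3.39 in female WT and 9.18, 38.1 and 18.3 in female AS libraries. Its log2 fold change was 0.82 in females against 3.94 in males, a difference of 3.12 (adjusted p = 0.00702 in limma). Igfbp2 passed the filter in males through AS libraries only, so this test adds little to the values. Tsc22d3 was lower in female AS (-0.96) and higher in male AS (1.49), and Per1 was at -1.10 in females without a call and at 1.36 in males. Their differences were 2.45 and 2.45 (adjusted p = 0.00347 and 0.0148 in limma). At the other end stood male-biased tubule enzymes and immediate early genes. Cyp2d9 was 6.04 and 23.7 in female WT and 25.1, 5.45 and 19.4 in female AS libraries (male and female tables were normalized separately), and its difference was -3.70 (adjusted p = 0.0197 in limma). Fosb was 1142 and 1284 in female WT and 8170, 8432 and 4423 in female AS, higher in every heterozygous library, and its difference was -3.38 (adjusted p = 0.0226 in limma).

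**Figure D5:**
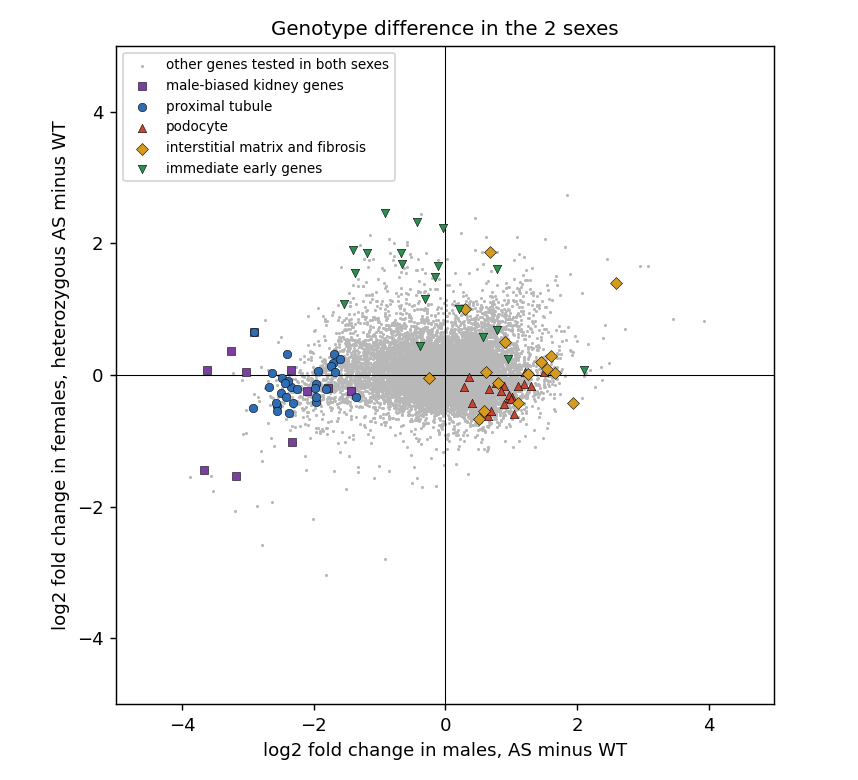
Each point is a gene tested in both sexes, with its log2 fold change in male AS against WT on the x axis and in heterozygous female AS against WT on the y axis; 5 gene lists are colored and other genes are gray. Podocyte markers and interstitial matrix genes lie mostly to the right and proximal tubule and male-biased genes to the left of 0, and their female medians were -0.23, 0.04, -0.19 and -0.20.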

How the data were processed

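PolyA-selected stranded RNA libraries were sequenced from glomeruli of 12 samples. The submitters' processing notes name FastQC, cutadapt, STAR, Partek and the mm10 build, with no versions. The authors deposited TMM-normalized counts, a signal that is never negative, in 1 table per sample, and male and female tables were scaled separately. Values were fractional: 77.1% to 81.1% of low values were whole multiples of a step (tolerance 0.01), so whole reads were not recovered and no count test was used. Column totals of the male tables were 14242206 to 23182937. Values under 1e-06 were taken as 0, and symbols that a spreadsheet had turned into dates were left out (22 for males, 23 for females).

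Genes that reached 0.5 ppm (parts per 1000000 of the column total) in 3 or more tables entered limma 3.58.1 (moderated test with a trend, two-sided, R 4.3.3) on log2(value + 1 ppm), which is 17.6 male and 17.8 female units, with Benjamini-Hochberg adjustment at 0.05. The male fit used the 6 male libraries. The sex comparison used 11 distinct libraries, since 1 female WT table repeats another. Shares were compared with an exact permutation test over libraries. The test was tried on simulated data first. Python 3.11.15, numpy 2.4.6, scipy 1.17.1, pandas 2.3.3 and matplotlib 3.10.9 were used.

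The members, the 58 gene lists and the rules were chosen with earlier results of these data known. Genes named were the 15 with the largest fold change each way among called genes at 5 ppm or more with no overlap, the 10 with the largest level difference each way, up to 6 called and 3 uncalled members per list, genes within 5 Mb of Col4a5, Col4a5, Tnfrsf21 and Tgfbr2, and the 5 with the largest sex difference each way. Not all genes that the rule names are described, and 1 is not reported here. Alternatives covered the pseudocount (0.25 and 4 ppm), the filter (none, and 2 ppm), the scale, a proximal tubule covariate, a replicate block, limma without a trend, protein-coding genes only, all libraries in one fit and each library left out.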

Additional observations from a re-analysis of the deposited data

Results flagged for a closer look

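The effect of genotype differed between male and female glomeruli for 3602 of 15492 genes by the interaction term in limma. Of the 79 named genes tested, 60 passed. The values below are the male minus the female log2 fold change, each within tables of its own sex, with 3 against 3 male and 2 against 3 female libraries. Female run and genotype cannot be told apart. No difference passed the test without female WT replicate 1 and 4682 did without replicate 2, and either fit leaves 1 female WT library that is assumed to vary like the other groups. Of the 60 genes, 18 passed in 5 or fewer of the 11 fits that left out 1 library and 24 passed in 10.

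Among genes that passed, the male effect lay furthest above the female effect for Igfbp2 (3.12), Cacna1s (2.62), Tsc22d3 (2.45), Per1 (2.45), Svep1 (2.44), Col1a2 (2.42), Ccn2 (2.36), Tnfsf15 (2.31), Rspo1 (2.24), Pcsk6 (2.13), Btnl9 (2.10) and Cxcl12 (2.04). Smaller differences in the same direction were found for Nes (1.87), Adam12 (1.83), Ednrb (1.76), Frem1 (1.67), Synpo (1.63), Mmp2 (1.63), Nid2 (1.59), Nfkbie (1.55), Tnc (1.45), Tagln (1.38), Loxl2 (1.33), R3hdml (1.31), Lox (1.26), Loxl1 (1.19), Npnt (1.18), Malat1 (1.13), Relb (1.00), Col4a3 (0.96), Tgfbr2 (0.91), Acsl4 (0.70) and Dicer1 (0.57). Of these, Dicer1 passed in 1, Col4a3 in 2, Relb in 3, R3hdml and Tgfbr2 in 4, and Acsl4 and Ednrb in 5 of the 11 fits. Igfbp2 and Frem1 passed the filter in males through AS libraries only, so their tests add little to their values.

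Among genes that passed, the male effect lay furthest below for Lrrc19 (-2.50), Agt (-2.53), Gdf15 (-2.99), Slc5a8 (-3.01), Egr1 (-3.05), Akr1c14 (-3.26), Fos (-3.30), Fosb (-3.38), Kap (-3.57), Igfbp1 (-3.58), Acsm3 (-3.62) and Cyp2d9 (-3.70). Smaller differences in that direction were found for Ctsh (-0.57), Selenop (-1.32), Cfb (-1.60), Lcn2 (-1.81), Gpx1 (-1.88), Slc34a1 (-1.89), Cldn2 (-1.91), Ehhadh (-1.95), Lama1 (-1.98), Ddah1 (-1.98), Tmem254b (-2.03), Slc16a14 (-2.15), Muc20 (-2.17), Cyp4a12a (-2.22) and Aqp4 (-2.33). Of the genes with a male effect below the female one, Ctsh and Slc34a1 passed in 3, Cfb, Cyp4a12a, Muc20 and Slc16a14 in 4, and Aqp4, Ehhadh, Lcn2, Lrrc19 and Selenop in 5 of the 11 fits. Female values of Cyp2d9 lie around the pseudocount, where a fall as deep as in males could not appear, so its test adds little. Pcdhgc4 had a difference of 2.46 that did not pass (adjusted p = 0.0525 in limma).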

How the results depend on the processing

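The count of 5641 called genes was 14205 when values were divided by the proximal tubule markers and 0 with these markers as a covariate, where limma gave 651 genes an unadjusted p under 0.05 and the median standard error rose from 0.17 to 0.42. Without 1 library it ranged from 2644 to 5938, and the other settings kept it within 1.5 times. The count of 3602 genes whose effect differed between the sexes was 2021 without a filter and ranged from 0 to 4848 without 1 library. With the replicate block the counts were 6413 and 3443. In their deviations from the group means, same-numbered WT and AS samples correlated at 0.05, 0.52 and 0.06. Not every sample correlated best with its own number. With 3 samples a group, these values cannot decide whether same-numbered samples share a litter or a day.

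Of the 81 named genes, 15 turned direction when divided by the proximal tubule markers: Col4a5 (1.02), Cldn2 (0.074), Gpx3 (0.071), Selenop (0.13), Lama1 (0.35), Acta2 (1.44), Ddah1 (0.37), Cfb (0.21), Vcam1 (0.073), Tnfrsf21 (0.79), Ehhadh (0.15), Gpx1 (0.42), Ctsh (1.19), Nr1d1 (0.50) and Egr1 (1.00). With these markers as a covariate 8 turned: Cldn2 (0.066), Pcdhgc4 (-0.34), Slc5a8 (0.47), Lrrc19 (0.41), Synpo (-0.27), Ddah1 (0.11), Tgfbr2 (-0.12) and Ehhadh (0.69). Divided by podocyte and endothelial markers 3 turned: Malat1 (-0.036), Tgfbr2 (-0.14) and Dicer1 (-0.17). The size of the fold change of genes with low values depends on the pseudocount: at 0.25 and 4 ppm Rspo1 was at 3.33 and 1.24, Frem1 at 3.37 and 1.27, Slc14a2 at -4.64 and -2.16, and Col4a6 at -2.43 and -1.04. No called gene turned in a fit without 1 library. The cause of these changes was not tested.

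With 3 libraries a group, genotype, tubule content and podocyte content cannot be told apart.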

Other observations

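Gene families that share the start of a symbol were counted after the data had been seen, and no test of the groups was made. Of 291 tested solute carriers (Slc), 20 were higher and 152 lower in AS, with a median log2 fold change of -0.70, and of 41 cytochromes P450 (Cyp) 1 was higher and 26 lower (median -1.06). UDP-glucuronosyltransferases (Ugt, 9 of 13 lower, none higher), glutathione transferases (Gst, 13 of 19 lower, none higher) and subunits of the vacuolar proton pump (Atp6v, 13 of 22 lower, none higher) had medians of -1.46, -0.81 and -0.69. These medians stayed below 0 with equal column totals and with podocyte and endothelial markers as the scale. Zinc finger genes (Zfp, 360 tested) split as 63 higher and 10 lower, with a median of 0.13 that was -0.58 with podocyte and endothelial markers. Adamts metalloproteases (7 of 18 higher, 1 lower, median 0.69) and semaphorins (Sema, 9 of 18 higher, 5 lower, median 0.66) were at -0.03 and -0.10 on that scale. Of 107 pseudogenes of ribosomal proteins, 45 were higher and 3 lower, with a median of 0.49 that was 0.01 on that scale. All of these are to be read against 16.6% of all genes higher and 18.9% lower.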
